A study of Mus musculus with 4 samples.

Results

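Apolipoproteins are the protein components of plasma lipoproteins, and the liver makes most of them. Structural members hold a particle together: apolipoprotein B does so in very low and low density lipoproteins, and apolipoproteins A-I and A-II in high density lipoproteins. Exchangeable members, which include apolipoproteins A-I and A-II, move between particles. There they activate or inhibit lipases and transfer proteins or are bound by receptors that clear remnants. The 10 genes described here, Apoa1, Apoa2, Apoa4, Apoa5, Apob, Apoc1, Apoc2, Apoc3, Apoe and Apom, were taken from the plasma apolipoproteins by matching the RefSeq accession of each array probe to these symbols. The match found 9 of the 10 genes, with 15 probes, among 31077 genes or accessions tested. No probe matched Apoc2, which was not analysed here.

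The livers came from male C57Bl/6 mice, 3 months old, all of which carried a mutant Wrn protein (Wrn encodes a helicase that maintains DNA). The treated mice had drunk water with 0.4% vitamin C since weaning, and the controls were Wrn mutant mice without treatment, so no liver with normal Wrn entered the comparison and the labels do not name the allele. RNA of 4 treated livers (Cy3) was set against RNA of 4 untreated livers (Cy5) in 4 pairs, 1 pair to an array, which the labels call biological replicates. Values below are loess-normalized log2 ratios, treated over untreated, as mean ± SD of 4 arrays. Which dye held which liver was taken from the labels, which give Cy3 to the treated liver on every array. The authors' deposited table runs as Cy5 over Cy3, while the sample titles name the treated liver first. If that table followed the titles, the dyes would be the reverse of their labels, and every direction below would turn. With 0 dye-swapped arrays, a dye effect of a probe cannot be told apart from an effect of vitamin C.

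None of the 9 genes passed limma's test at an adjusted p of 0.05, and nor did any other gene (0% of 31077, where the smallest adjusted p was 0.144). Within that limit, most apolipoprotein ratios lay below 0. Apob had the lowest mean, -1.71 ± 0.84, on its brightest probe, while 3 of its 5 probes averaged -0.42. Apoc1 (-0.68 ± 0.13) and Apoe (-0.63 ± 0.17) followed, and Apoa2, Apoa1, Apoc3 and Apom lay between -0.33 and -0.21. Apoa5 (0.0078 ± 0.34) and Apoa4 (0.086 ± 0.45) had means just above 0. The mean was below 0 for 7 of 9 genes, against 53.9% of all genes, and the same 7 were below 0 on all 4 arrays, against 16.1% of all genes. The median of the 9 gene means was -0.26, where that of all genes together was -0.015. Taken on each array separately, the median of the 9 ratios was -0.23, -0.49, -0.49 and -0.40 on replicates 1 to 4. Even if a ratio below 0 came from less of that RNA in treated livers, fewer hepatocytes and less RNA per hepatocyte cannot be told apart in whole liver.

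**Figure D1:**
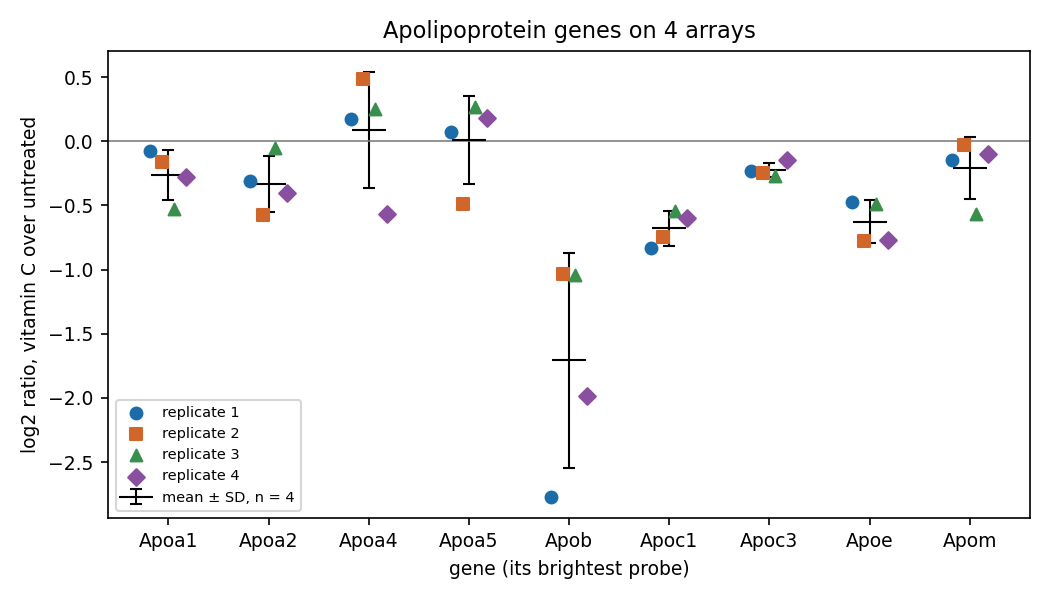
Log2 ratio of vitamin C over untreated (vertical axis) for the brightest probe of each of 9 apolipoprotein genes (horizontal axis), on 4 arrays, with mean ± SD. All 4 points lie below 0 for 7 genes, Apob the lowest, while Apoa4 and Apoa5 have points on both sides.

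These counts have to be read beside brightness. Of the 9 genes, 6 had a mean log2 intensity of 17 or more (Apoa1, Apoa2, Apoa5, Apoc1, Apoc3 and Apoe), as did only 153 of all genes, and no gene was brighter than Apoc1. Ratios of such bright genes were low in general. Of the 153, 94.8% had a mean below 0, 65.4% were below 0 on all 4 arrays, and the median was -0.30. The 6 bright apolipoprotein genes had a median of -0.30, with 5 of 6 below 0 on all 4 arrays. At an unadjusted p under 0.05, 6 of the 9 genes were lower and 0 higher, against 16.5% and 11.1% of all genes. Among the 153 bright genes, 71.2% were lower at that level.

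**Figure D2:**
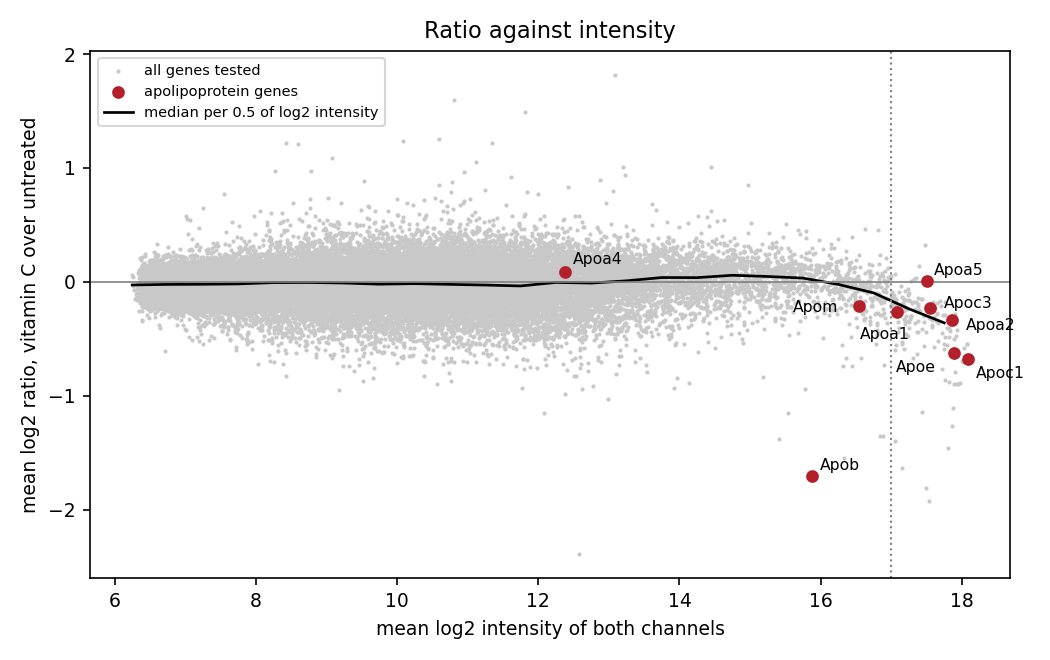
Mean log2 ratio of vitamin C over untreated (vertical axis) against mean log2 intensity of both channels (horizontal axis) for all genes tested (grey), with the 9 apolipoprotein genes in red and the median of all genes in steps of 0.5 of log2 intensity (black line). The line bends below 0 beyond the dotted mark at 17, where 6 of the red points lie, and Apob lies far below it at 15.9.

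Each ratio was therefore also given minus the median of the 100 other genes nearest in intensity, on each array. On that scale the median of the 9 genes was -0.083, and 5 of 9 had a mean below 0. So did 15819 of all 31077 genes and 90 of the 153 bright genes, which are shares close to that of the 9. Apob (-1.75 ± 0.83), Apoc1 (-0.34 ± 0.13), Apoe (-0.29 ± 0.18) and Apom (-0.17 ± 0.25) were below 0 on all 4 arrays, which 14.1% of all genes were. Of the 153 bright genes 30 were, and of the 6 bright apolipoprotein genes 2 were, Apoc1 and Apoe. Apoa1 stood at -0.083 ± 0.19, Apoa2 at 0.0049 ± 0.22, Apoc3 at 0.076 ± 0.058, Apoa4 at 0.12 ± 0.42 and Apoa5 at 0.30 ± 0.35. None passed limma's test on this scale either. For Apoa2, Apoc1 and Apoe the 100 genes were the brightest of the array, at log2 intensities of 17.2 to 18.1, with a median ratio of -0.34. Of those 100, 16 had a mean below that of Apoc1 and 18 a mean below that of Apoe. Most of them were dimmer than Apoa2, Apoc1 and Apoe, as 18, 0 and 14 genes were brighter than these. The median of near genes fell with intensity, from -0.18 for Apoa1 (at 17.1) to -0.30 for Apoc3 (at 17.5). Whether the subtraction took off the whole trend for the brightest genes was not tested.

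**Figure D3:**
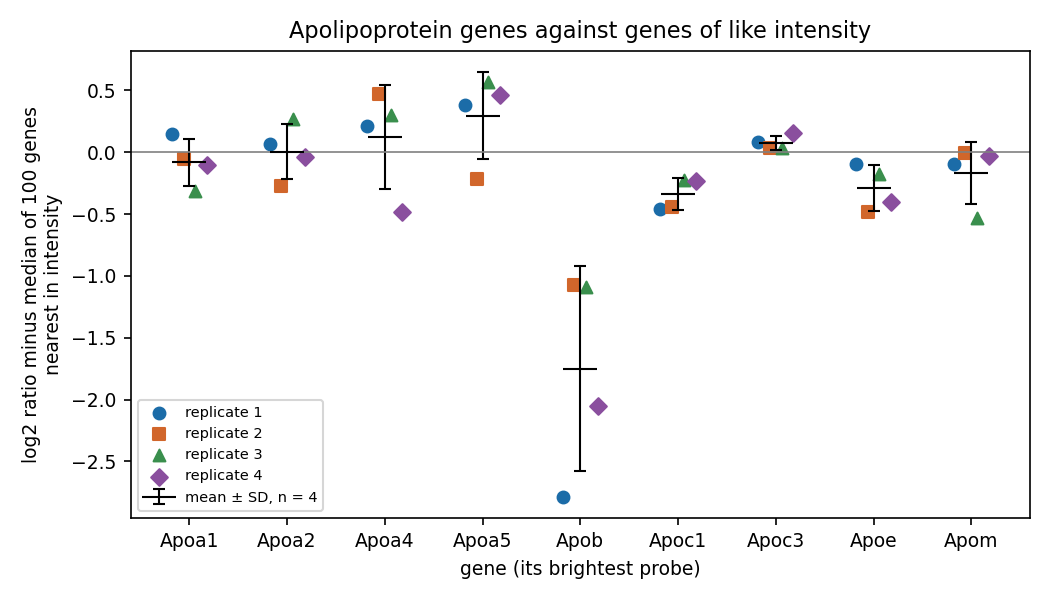
Log2 ratio of each apolipoprotein gene minus the median ratio of the 100 other genes nearest in intensity on the same array (vertical axis), by gene (horizontal axis), for 4 arrays with mean ± SD. Apob, Apoc1, Apoe and Apom have all 4 points below 0, and Apoc3 has all 4 above.

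Proximal promoters are shown for 3 genes with different ratios: Apob, the lowest, Apoa1, below 0 on all arrays, and Apoa5, on both sides of 0. Each is the 100 bases before the annotated start of transcription on the plus strand, from RefSeq on GRCm38.p6, at chr12:7977577-7977676 for Apob, chr9:46228530-46228629 for Apoa1 and chr9:46268508-46268607 for Apoa5. Capitals mark the letters TATAAA, the core of a TATA box, searched on both strands.
Apob: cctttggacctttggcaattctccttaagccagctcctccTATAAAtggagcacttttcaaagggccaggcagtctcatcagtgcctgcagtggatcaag
Apoa1: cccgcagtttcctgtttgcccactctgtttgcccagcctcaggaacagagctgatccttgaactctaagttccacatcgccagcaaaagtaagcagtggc
Apoa5: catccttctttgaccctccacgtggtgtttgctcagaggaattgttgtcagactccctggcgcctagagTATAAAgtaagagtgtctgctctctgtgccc
The match began 60 bases before the start in Apob and 31 bases before it in Apoa5, and these letters are not in the Apoa1 window. Among 32851 windows of this kind in the RefSeq table, 5.56% held a match. Of the 10 genes 8 had an entry, and 3 of these 8 had a match in any of their windows. A match of letters is a description and no evidence of use in these livers.

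Apob encodes the structural protein of very low density lipoproteins, of which 1 molecule stays with a particle for life. Its brightest probe (A_52_P441070) had log2 ratios of -2.77, -1.03, -1.05 and -1.98 on replicates 1 to 4. All 4 lay below 0, and replicates 1 and 4 lay far below the other 2. The mean of -1.71 is 3.27-fold lower in treated livers, with a 95% interval of -2.46 to -0.95, and did not pass (adjusted p = 0.144, limma). Only 3 of all genes tested had a lower mean, namely Moxd1, Mup1 and Mup5.

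The 5 Apob probes fell into a pair and a group of 3. The next brightest probe (A_51_P470542) followed the first, with -2.59, -0.81, -0.93 and -1.80. The other 3 probes had -0.35, -0.43, -0.45 and -0.22 (A_51_P413088), -0.15, -0.069, -0.85 and -0.64 (A_51_P380650), and -0.13, -0.34, -0.74 and -0.65 (A_51_P436690). All 5 were below 0 on all 4 arrays, so the probes differed in size and not in sign. The pair averaged -1.62 ± 0.83 and the group of 3 averaged -0.42 ± 0.21. The difference between them was -2.47, -0.64, -0.31 and -1.39 on replicates 1 to 4. This grouping was made from these values, so the difference has no test.

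The channels as scanned show where the pair departed. On the brightest Apob probe the Cy3 intensity (treated) was 21627, 26889, 18769 and 26619 on replicates 1 to 4, while the Cy5 intensity (untreated) was 238945, 129554, 101087 and 189737. Cy5 thus varied more between arrays than Cy3, and it was highest on replicates 1 and 4. On the dimmest Apob probe the intensities were 7077, 4094, 3151 and 4075 in Cy3 and 11924, 10863, 13670 and 11087 in Cy5, with no such excess on those arrays. With the median over the 5 probes in place of the brightest, the Apob mean was -0.57, and with the dimmest probe it was -0.46. The mean log2 ratio of single Apob probes thus ran from -1.71 to -0.36. Where the probes lie in the transcript was not examined, and a cause was not tested.

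**Figure D4:**
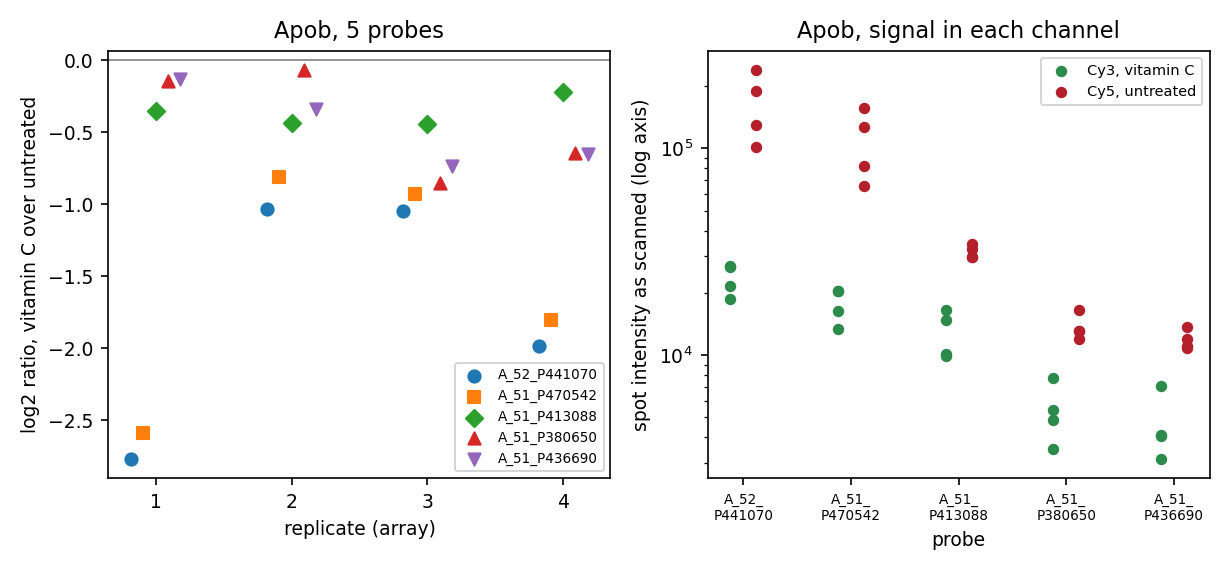
Left, log2 ratio of vitamin C over untreated for the 5 Apob probes on 4 arrays. Right, intensity as scanned for each probe in Cy3 (vitamin C, green) and Cy5 (untreated, red), 4 arrays each, on a log axis. The 2 brightest probes reach -2.77 and -2.59 on replicate 1, where the other 3 lie between -0.35 and -0.13, and the red points of these 2 probes spread more widely than the green.

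Among the exchangeable apolipoproteins, Apoc1, which encodes an inhibitor of lipoprotein lipase and of remnant uptake, had log2 ratios of -0.83, -0.74, -0.54 and -0.59. All 4 arrays lay well below 0 and close together. The mean of -0.68 ± 0.13 (95% interval -0.84 to -0.52) is 1.60-fold lower in treated livers. The unadjusted p of 5.84e-05 became an adjusted p of 0.144 (limma), which missed the threshold. Minus genes of like intensity the Apoc1 mean was nearer to 0, at -0.34 ± 0.13. The Cy3 intensities of its 1 probe were 166708, 123806, 129322 and 178619, and the Cy5 intensities were 513878, 539439, 518476 and 518644. Cy5 on this probe stood at 80.1% to 84.0% of the scanner's saturation value and Cy3 at 19.2% to 27.8%, and the spot was marked as saturated on 0 arrays. How intensities that near saturation bear on the ratio was not tested.

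Apoe, the ligand by which receptors of the liver take up remnant particles, lies next to Apoc1 in the genome. Its probe was spotted 10 times on each array, and the array means were -0.48, -0.78, -0.49 and -0.77. Replicates 2 and 4 were lower than replicates 1 and 3. The spots of an array differed by an SD of 0.017 to 0.040, and the arrays by an SD of 0.17. Repeat spots share 1 RNA, labelling and array, so the former holds only technical error. The mean of -0.63 (95% interval -0.81 to -0.45) is 1.55-fold lower in treated livers. Its unadjusted p was 1.9e-04 and its adjusted p 0.144 (limma). Minus genes of like intensity the Apoe mean was nearer to 0, at -0.29 ± 0.18. Of the 40 Apoe spots, 5 were left out as outliers.

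Apoc3, which encodes an inhibitor of lipoprotein lipase and of hepatic remnant clearance, had the narrowest spread of the 9 genes. Its brightest probe had -0.23, -0.25, -0.27 and -0.15 and its other probe -0.14, -0.10, -0.11 and -0.057. Both were below 0 on all 4 arrays, the dimmer 1 less so. The mean of -0.23 ± 0.053 did not pass (adjusted p = 0.144, limma). Genes of like intensity were lower still, and minus their median the gene was at 0.084, 0.031, 0.034 and 0.15. With Agilent's processed values it was at 0.0088, so the sign of the Apoc3 ratio turned with the scaling.

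Of the genes of high density lipoproteins, Apoa1 encodes the main structural protein and the activator of the enzyme LCAT, which esterifies cholesterol. Its probe, also spotted 10 times, had array means of -0.079, -0.16, -0.53 and -0.28, and replicate 3 was lowest. The spots of an array differed by an SD of 0.031 to 0.051, against 0.19 between arrays. The mean of -0.26 ± 0.19 did not pass (adjusted p = 0.148, limma). Apoa2, the next most abundant protein of these particles, had -0.31, -0.57, -0.054 and -0.40, where replicate 3 was nearest to 0. Its mean of -0.33 ± 0.22 did not pass (adjusted p = 0.144, limma), and it became 0.0049 minus genes of like intensity. Replicate 3 was thus the lowest array for Apoa1 and the highest for Apoa2.

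**Figure D5:**
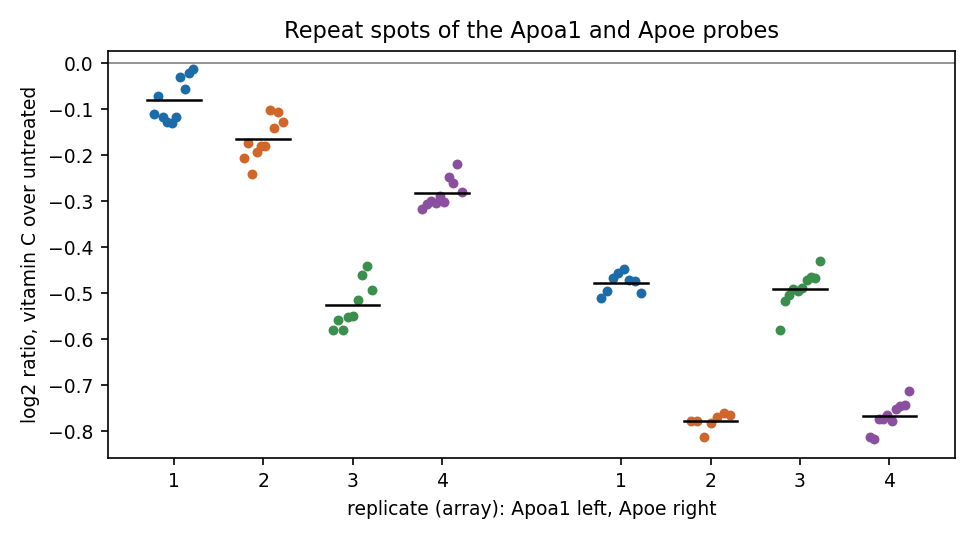
Log2 ratio of vitamin C over untreated (vertical axis) for each of up to 10 spots of the Apoa1 probe (left) and the Apoe probe (right) on 4 arrays (horizontal axis), with the array mean as a line. Spots of an array lie close together and arrays stand apart, replicate 3 lowest for Apoa1 and replicates 2 and 4 lowest for Apoe.

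Apom, which encodes the carrier of sphingosine 1-phosphate on high density lipoproteins, had -0.14, -0.032, -0.57 and -0.10. All were below 0, and 3 of the 4 were within 0.15 of it. The mean of -0.21 ± 0.24 did not pass (adjusted p = 0.214, limma), and without replicate 3 it was -0.092. Apoa1 and Apom were both lowest on replicate 3.

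Apoa5, an activator of triglyceride clearance by lipoprotein lipase, had 0.069, -0.49, 0.27 and 0.18 on its brightest probe and 0.23, -0.062, 0.29 and 0.097 on the other. Both probes were below 0 on replicate 2 and above 0 on the other arrays. The mean of 0.0078 ± 0.34 did not pass (adjusted p = 0.973, limma), and it was -0.26 without loess. Apoa5 was the 1 gene of the 6 bright ones whose mean was not below 0. Apoa4, an apolipoprotein of chylomicrons made mostly in the intestine and to a lesser extent in mouse liver, had a log2 intensity of 12.4 and was read without scaling in both channels. Its ratios were 0.17, 0.48, 0.25 and -0.56, so replicate 4 was opposed to the other arrays, and its mean of 0.086 ± 0.45 did not pass (adjusted p = 0.755, limma).

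Neighbours in the genome are given side by side. In the RefSeq gene table Apoa1, Apoc3, Apoa4 and Apoa5 lie side by side. The first 2 were below 0 on all 4 arrays while the last 2 were on both sides. This did not hold minus genes of like intensity, where the median of the 4 genes was 0.10. There Apoc3 was above 0 on all 4 arrays, and Apoa1, Apoa4 and Apoa5 were on both sides. Apoc1 and Apoe, neighbours in another cluster, had means of -0.68 and -0.63, but their arrays ran differently, with Apoc1 lowest on replicate 1 and Apoe on replicate 2. Such differences between neighbours were not tested.

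The call of the list rests on the arrays used. Without replicate 2, 4 of the 9 genes passed, all lower (Apob, Apoc1, Apoc3 and Apoe, adjusted p of 0.0098 to 0.031, limma), and 18.1% of all genes passed as lower. Without loess 7 of 9 passed as lower, as did 5281 of all 31077 genes (17%). When the channels were fitted separately with the array as a random replicate block, 5 passed as lower, Apoa2, Apob, Apoc1, Apoc3 and Apoe, as did 1.07% of all genes. Of the 9 genes, 6 had a log2 intensity of 17 or more, where ratios were low in general. The share of such bright genes that passed was not computed for these settings, so the counts cannot be set against it.

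All 15 probes were well above background in both channels on all 4 arrays, and 0 were saturated. The median spot was at 380 to 530 in Cy3 and 813 to 962 in Cy5. Bright spots were read from a scan at low gain and scaled up, which concerned 2.55% to 3.64% of spots in Cy3 and 4.99% to 5.63% in Cy5. Of the 15 probes, 9 were scaled up in both channels on all arrays and 3 in neither. The brightest Apob probe was scaled up in Cy5 on all 4 arrays and in Cy3 on 3. Whether the scaling bears on the low ratios of bright genes was not tested. Of 8 hepatocyte markers 6 were measured, each above background in both channels on all arrays. Their median was -0.24, or -0.12 minus genes of like intensity. Alb (-0.70 ± 0.25) and Trf (-0.59 ± 0.13) were below 0 on all 4 arrays. Tat (-0.41 ± 0.45), Asgr1 (-0.074 ± 0.19), Hnf4a (0.077 ± 0.19) and Ttr (0.11 ± 0.13) were on both sides of 0. Alb, Trf and Tat had log2 intensities of 18.0, 17.7 and 17.1, where ratios were low in general. Asgr1, Hnf4a and Ttr were dimmer, at 16.6, 13.3 and 15.6. Markers of enterocytes, which also make apolipoproteins, had a median of -0.19 over 4 genes, of which Fabp2 was at 0.24, and Kupffer cell and macrophage markers had array medians of -0.36, 0.24, 0.048 and 0.40. Their part in the results was not tested.

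Other genes of lipoprotein metabolism were centred near 0. Of 57 listed genes 54 were measured, with a median of -0.00071 (0.012 minus genes of like intensity), and 0 passed. Their median log2 intensity was 13.35, against 17.51 for the 9 apolipoprotein genes, whose median minus genes of like intensity was -0.083. At an unadjusted p under 0.05, 4 of the 54 were lower and 10 higher, against 16.5% and 11.1% of all genes. Among 8 other apolipoprotein and related genes, 3 were lower at that level and 0 higher. Apoh, which encodes a phospholipid-binding plasma glycoprotein, had -0.46, -0.49, -0.41 and -0.44, a mean of -0.45 ± 0.032, which was -0.11 minus genes of like intensity. Apof, which encodes an inhibitor of lipid transfer, had a mean of -0.39 ± 0.092, or -0.36 minus genes of like intensity. Both lay below 0 on all 4 arrays without passing (adjusted p = 0.144 each, limma).

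Among 17 genes of assembly, secretion and remodelling, 6 were higher at an unadjusted p under 0.05 and 0 lower. Of all genes, 11.1% were higher and 16.5% lower at that level. The median of the 17 was 0.11. Gpihbp1, which anchors lipoprotein lipase to capillaries, had 0.18, 0.14, 0.44 and 0.51, and Abcg1, a cholesterol exporter, had 0.15, 0.23, 0.63 and 0.69. All 8 values were above 0, with replicates 3 and 4 higher than replicates 1 and 2 for both genes (adjusted p = 0.144 each, limma). Mttp, which loads lipid onto apolipoprotein B, was at 0.11 ± 0.24 (adjusted p = 0.465, limma). Of 13 receptors and their regulators, 1 was lower and 2 higher at the unadjusted level, the latter near the 11.1% of all genes. Sort1, a sorting receptor that binds apolipoprotein B, had a mean of -0.31 ± 0.22 and was below 0 on all 4 arrays. Vldlr, a receptor for particles that carry apolipoprotein E, had 1.51, -0.33, 2.14 and 1.54, with replicate 2 opposed to the other arrays (adjusted p = 0.15, limma). Of 16 transcription factors, 0 were lower and 2 higher, the latter also near the 11.1% of all genes. The 2 were the nuclear receptor genes Esrra (0.30 ± 0.19) and Nr1h2 (0.26 ± 0.18), both above 0 on all 4 arrays. Hnf4a, a main activator of apolipoprotein genes in hepatocytes, was at 0.077 ± 0.19.

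The median profile of the apolipoprotein genes is their median on each array. The 5 genes whose 4 ratios were nearest to it, among 16852 genes with a symbol, were Lmln, Hoxd13, Akap9, Atf2 and Txnl1. Their root mean square difference from that profile over the 4 arrays was 0.050 to 0.079. They had means of -0.40 to -0.36 and log2 intensities of 8.0 to 14.2.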

How the data were processed

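Per the file headers, the deposited spot intensity values come from version 10.5.1.1 of Agilent's Feature Extraction. The authors' log2 table of the same arrays (limma, per the submitters' processing notes) has unstated steps and scale. It runs as Cy5 over Cy3 (r = 0.950 to 0.980 across probes with log2 Cy5 over Cy3 computed here), with column medians of 0.0037, 0.0050, 0.0022 and 0.0014, so its sign was turned. Agilent's log10 ratio was deposited too, per the file headers, and served only to check which dye it sets over which.

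Here median intensities were background-corrected with normexp (offset 50) and normalized by loess in limma 3.58.1 (R 4.3.3). Outlier spots were dropped and repeat spots averaged. Of 41174 probes, 61.0% matched 1 symbol in a RefSeq table of GRCm38.p6, while the array design names mm9, so no coordinates are given but those of the RefSeq promoters, on GRCm38.p6. A gene's brightest probe stood for it, if well above background in either channel on at least 3 arrays. Ratios were tested against 0 with lmFit and eBayes, adjusted by Benjamini-Hochberg over all genes. The pairing lies in the array ratio. All 4 arrays shared 1 slide. Their number limits the precision.

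The members and lists were chosen with earlier results of these data known. All members were named, with the 2 genes of smallest p from each further list and the 5 of most like pattern, and other named genes were chosen after their values were seen. The path was tested on simulated data with the same spread set for all genes and arrays. In these data the spread differed between genes, so that test does not show what could be detected here. Apoc2 and its sequence were not used.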

Additional observations from a re-analysis of the deposited data

How the results depend on the processing

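The median over the 9 genes stayed below 0 under all alternatives run. It was -0.14 with Agilent's processed values, -0.51 without loess and -0.083 with the running median over intensity taken off, and lay between -0.32 and -0.21 when single arrays were dropped. Genes with a mean below 0 numbered 8 with any array left out. The number past the threshold was 7 without loess, 5 with the channels fitted separately and the array as a random replicate block, 0 with the channels separate and no replicate block, and 0 to 4 when single arrays were dropped, the 4 without replicate 2. The cause was not tested. Shares of all genes that passed as lower are given above, and shares of bright genes were not computed. Apoa1, Apob, Apoc1, Apoe and Apom were below 0 under all alternatives, Apob from -1.93 to -0.46. Other signs turned. Apoa2 was at 0.0049 with the running median taken off. Apoc3 was at 0.0088 with Agilent's processed values and 0.076 with the running median taken off. Apoa4 was at -0.057 without loess and between -0.047 and 0.30 when single arrays were dropped. Apoa5 was at -0.26 without loess, -0.045 with arrays scaled to a common spread, and between -0.080 and 0.17 when single arrays were dropped. With the dimmest probe of each gene, an alternative added after seeing the data, 0 passed. No apolipoprotein probe was limited by background.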

Other observations

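Disagreement between probes as wide as that of Apob was rare. Of 5888 genes with at least 2 probes above background, 2 had probe means that lay at least 1.34 apart on the log2 scale, Apob and Slc15a2, and the median distance was 0.16. The probes of Apoa5 lay 0.13 apart and those of Apoc3 0.12. The distance is that between the highest and lowest probe mean, so more probes leave more room for it. Apob had 5 probes, Apoa5 and Apoc3 had 2 each, and no share among genes with as many probes as Apob was computed. Of 16852 genes, the nearest in size to the 4 Apob ratios was Psap, with -1.77, -0.65, -0.20 and -1.32 and a root mean square difference of 0.758. Psap, Ube4a (-1.15, -0.51, -0.53 and -1.40), Clec2d (-1.5, 0.098, -0.38 and -1.23) and Aldh2 (-1.07, -0.41, -0.55 and -1.31) were, like Apob, lower on replicates 1 and 4 than on replicates 2 and 3. Mup4, the other of the nearest 5, had -1.23, -0.011, -1.63 and -1.68. These comparisons were chosen after the values had been seen.

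Both Pltp and Lpl, genes of lipoprotein transport, varied widely between pairs, with SDs of 1.06 and 0.73 against 0.84 for Apob and at most 0.45 for the other apolipoproteins. Pltp, which encodes the phospholipid transfer protein of plasma, had 1.21, -0.84, 1.56 and 0.76, and Lpl, the lipoprotein lipase gene, had -0.64, 0.17, -0.85 and 0.73. Pltp, like Vldlr and Apoa5, was below 0 on replicate 2 and above 0 on the other arrays. These genes were picked for their spread, and none passed limma's test over all genes (adjusted p = 0.290 and 0.738 for Pltp and Lpl).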
